A study of Mus musculus with 4 samples.

Results

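The 10 genes described here are a compact set of natural killer (NK) cell genes. Ncr1, Klrk1, Klrd1 and Klrb1c encode receptors, Eomes and Tbx21 encode T-box transcription factors, and Gzma, Gzmb, Prf1 and Nkg7 encode granule proteins. They were chosen by name, and each was found under its symbol, among 28427 genes in the 2 embryonic periphery libraries and among 31053 genes in the 2 fetal liver libraries. The series addressed how lymphoid tissue inducer (LTi) cells arise, and single cells were profiled by droplet RNA sequencing from C57BL/6J mouse embryos. The groups were embryonic periphery at E14.5, embryonic periphery at E13.5, fetal liver at E14.5 and fetal liver at E13.5, with 1 library each. In every group, cells were enriched on CD45 beads and then sorted as live CD45+ F4/80- IL7Ra+ cells, so each value concerns cells that carry the IL-7 receptor chain, which most conventional NK cells of adult mice carry little of. The periphery was profiled with kit version 2 and the liver with kit version 3, and the gene lists of the tissues share 27566 genes by ID. A difference between tissues therefore cannot be told apart from one between kits or gene lists.

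NK cells and type 1 innate lymphoid cells make up group 1 of the innate lymphoid family. They read stress and missing-self signals through activating and inhibitory receptors, and they kill by releasing granules that hold perforin and granzymes. T-bet, the product of Tbx21, serves both lineages, whereas Eomes is tied to conventional NK cells in adult mice, and the fetal liver is an early site of NK cell development. LTi cells are the innate lymphoid cells that start lymph node formation.

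Positions are those of GRCm38 in the GENCODE M21 annotation. Klrb1c (chr6:128778485-128789215, minus strand), Klrd1 (chr6:129591782-129598775, plus strand) and Klrk1 (chr6:129610323-129623864, minus strand) share the NK gene complex, a cluster of lectin-like receptor genes. Ncr1 (chr7:4337724-4345164) and Nkg7 (chr7:43437073-43438249) lie on the plus strand of the same chromosome. The remaining members are Eomes (chr9:118478212-118486132, plus strand), Prf1 (chr10:61297833-61304680, plus strand), Tbx21 (chr11:97098071-97115331, minus strand), Gzma (chr13:113093825-113100981, minus strand) and Gzmb (chr14:56258838-56262260, minus strand). RefSeq promoter windows of GRCm38.p6, from 250 bases before to 50 after a start, matched 9 of the 10 members by symbol, and Klrd1 is named only. Both strands of each window were searched for TCACAC (reverse GTGTGA), the core of a T-box half-site, and for TGTGGT (reverse ACCACA), the core bound by Runx factors, which NK and innate lymphoid cells use. TCACAC or its reverse was present in 14.49% of all 32851 promoter windows, TGTGGT or its reverse in 16.8%, and both motifs in 2.92%. Among the members, Ncr1, Gzmb and Nkg7 held both motifs. Klrk1, Klrb1c, Gzma and Prf1 held only the Runx core, and the windows of Eomes and Tbx21 held neither. These matches describe letters and are not evidence of binding.

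The 3 windows that held both motifs are shown because they belong to a receptor and to 2 granule genes whose levels are set side by side below. Capitals mark the motif matches. The Ncr1 window shown is chr7:4337465-4337764 on the plus strand, with its T-box match starting at base -80 and its Runx matches at bases -176 and -41 from the start. Ncr1 has a second window with another start, chr7:4337474-4337773, in which the same matches lie at -89, -185 and -50.
Ncr1: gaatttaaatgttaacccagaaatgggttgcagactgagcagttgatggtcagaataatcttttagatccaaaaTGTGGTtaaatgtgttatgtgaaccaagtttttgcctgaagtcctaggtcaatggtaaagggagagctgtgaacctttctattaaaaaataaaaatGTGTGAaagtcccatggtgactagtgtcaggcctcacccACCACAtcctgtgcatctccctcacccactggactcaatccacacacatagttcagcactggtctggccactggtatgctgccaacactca
The Gzmb window is chr14:56262285-56262584 on the minus strand, with its T-box match at base -15 and Runx matches at -93 and -34.
Gzmb: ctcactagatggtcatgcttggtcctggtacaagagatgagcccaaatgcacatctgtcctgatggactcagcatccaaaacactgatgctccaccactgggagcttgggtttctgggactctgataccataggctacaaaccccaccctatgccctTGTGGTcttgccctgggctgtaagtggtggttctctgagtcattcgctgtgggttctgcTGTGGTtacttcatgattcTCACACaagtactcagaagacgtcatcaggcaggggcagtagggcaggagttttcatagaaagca
The Nkg7 window is chr7:43436888-43437187 on the plus strand, with its T-box match at -12 and its Runx match at -83.
Nkg7: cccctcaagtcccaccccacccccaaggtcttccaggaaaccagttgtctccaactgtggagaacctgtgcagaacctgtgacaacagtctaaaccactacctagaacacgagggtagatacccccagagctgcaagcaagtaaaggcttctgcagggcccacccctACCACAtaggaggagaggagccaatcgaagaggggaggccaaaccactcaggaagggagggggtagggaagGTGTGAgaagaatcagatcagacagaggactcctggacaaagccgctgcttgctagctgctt

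After filtering, 4340 cells were kept from the E14.5 periphery, 4155 from the E13.5 periphery, 10810 from the E14.5 liver and 9776 from the E13.5 liver. Their median depth was 8449, 11096, 15582 and 18188 unique molecular identifiers (UMIs, which count captured RNA molecules) in that order. Libraries of the same tissue shared at most 33 cell barcodes. A gene's level is its UMIs per 1000000 UMIs of the kept cells (CPM), and its interval is an exact Poisson one at 95% that covers counting error only. Ratios of CPM between libraries are given with exact intervals of the same kind. Every group is a single library, so no test was possible and no difference below has a replicate check. In pooled cells, fewer cells of a type and less RNA per cell cannot be told apart, and for that reason levels are also given inside clusters of cells.

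Cells of each tissue were clustered without the 10 members. Clusters were then named from marker lists that also exclude them. Cluster P17 of the periphery (103 cells at E14.5 and 123 at E13.5), cluster P13 of the periphery (134 and 337 cells) and cluster FL22 of the liver (297 and 119 cells) were group 1 innate lymphoid or NK-like. Of 18 group 1 markers, 10 were detected in P17, 10 in P13 and 12 in FL22. Other clusters came near this, with 9 in the LTi-like FL19 and 8 each in the LTi-like FL21 and the unnamed P6. P17 was led by AW112010, Gbp2, Serpina3f, Cxcl10 and Ly6a, most of them known as interferon-induced genes. The leading genes of P13 were Gm4208, Ccl5, Cd3g, Cck and Dhrs2, and those of FL22 were Ccl5, Cxcl10, Arg1, Tnfrsf9 and AW112010. The top 10 genes of P13 and of FL22 each held 2 group 1 markers and 2 T cell markers, so these names are weak. P13 lost its name under 3 of the 4 other clusterings tried. Of 13 T cell markers, 2 were detected in P17, 5 in P13 and 7 in FL22. Their summed level was 2325 CPM at E14.5 and 2145 CPM at E13.5 in P17, 3922 and 4292 CPM in P13, and 3106 and 3007 CPM in FL22. Trac, the constant chain of the αβ T cell receptor, had 4 UMIs at E14.5 and 3 at E13.5 in P17, 0 and 1 in P13, and 15 and 1 in FL22. The part of T cell transcripts in the results below was not tested. Il7r, the sorted receptor, stood at 242 CPM at E14.5 and 163 CPM at E13.5 in P17, 294 and 162 CPM in P13, and 160 CPM at both stages in FL22.

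Group 1-like cells made up 5.46% of kept cells in the E14.5 periphery and 11.1% in the E13.5 periphery. With a coarser clustering, where P13 lost its name, the periphery shares were 2.30% and 2.86%. In the liver they were 2.75% at E14.5 and 1.22% at E13.5. The E13.5 liver share was 0% when each library was clustered alone. They held 31.1% of the UMIs of all 10 members in the E14.5 periphery, 35.8% in the E13.5 periphery, 23.0% in the E14.5 liver and 7.60% in the E13.5 liver. Most UMIs of the set therefore came from other cells. In the E14.5 periphery these other cells held 4702 Nkg7, 2738 Gzma, 612 Gzmb and 398 Klrd1 UMIs, and in the other 3 libraries Nkg7 and Klrd1 held most of them. The members differed widely in this respect. At E14.5, 95.6% of Ncr1 UMIs in the periphery and 99.2% in the liver lay in group 1-like cells, against 0.473% of Gzma UMIs in the periphery and 1.95% of Gzmb UMIs in the liver.

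**Figure D1:**
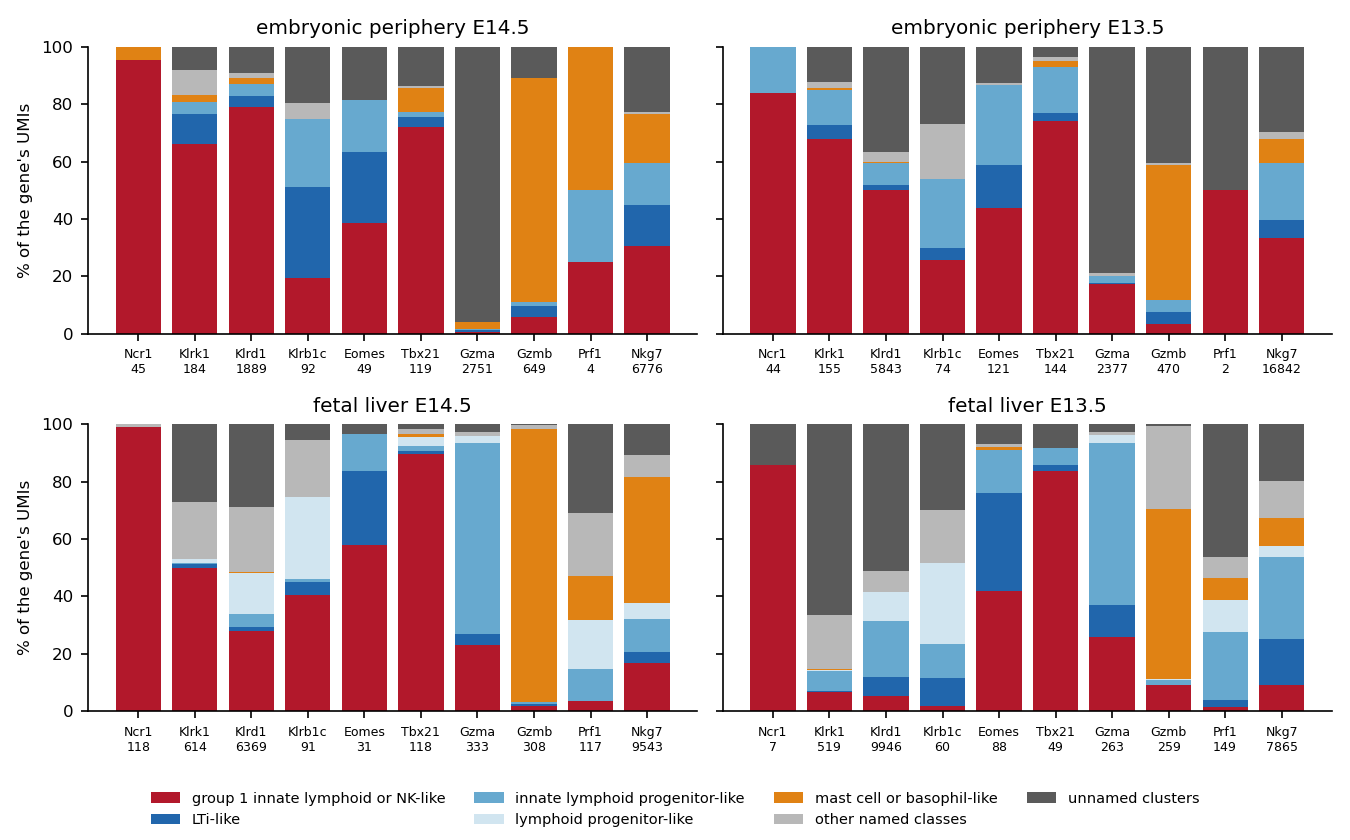
Share of each member's UMIs (per cent, vertical axis) held by each class of cells, 1 panel per library, with the UMI number under each gene name. Group 1-like cells hold most Ncr1 and Tbx21 UMIs in all 4 libraries (72.3% to 99.2%), whereas mast cell or basophil-like cells hold 47.0% to 95.1% of Gzmb UMIs. The periphery shares count the weakly named P13. It holds 47 of 119 Tbx21 UMIs at E14.5 and 74 of 144 at E13.5, and 10 of 45 and 21 of 44 Ncr1 UMIs.

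Ncr1 encodes NKp46, an activating receptor of NK cells and of some other innate lymphoid cells. Its transcripts were rare everywhere. The libraries held 45 UMIs (1.07 CPM) in the E14.5 periphery, 44 UMIs (0.874 CPM) in the E13.5 periphery, 118 UMIs (0.658 CPM) in the E14.5 liver and 7 UMIs (0.0380 CPM) in the E13.5 liver. The E13.5 liver stood apart as the low library. The CPM ratio of E14.5 to E13.5 was 17.3 in the liver (95% counting interval 8.16 to 44.1) and 1.23 in the periphery (0.792 to 1.90). At E13.5 the periphery exceeded the liver 23.0-fold (10.3 to 60.6), whereas at E14.5 the ratio was 1.63. The UMIs came from 21, 14, 40 and 5 cells in the 4 libraries, listed in the same order, and the 10 richest cells held 63.6% to 100% of them. In FL22, 39 of 297 cells at E14.5 (13.1%) and 4 of 119 at E13.5 (3.36%) had a Ncr1 UMI. In B lineage-like cells, which should lack the gene, 1 of 3399 E14.5 liver cells did (0.0294%, median 16361 UMIs), so the FL22 share at E14.5 lay above that background. In the E13.5 liver 0 of 140 such cells had one (median 13006 UMIs), which allows a share of up to 2.14%, against the 3.36% of FL22 cells. None of 337 E14.5 periphery B lineage-like cells had one, which allows a share of up to 0.890%. The limits of 2.14% and 0.890% are 3 divided by the number of cells, and an exact binomial 95% interval would reach higher.

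Klrk1 encodes NKG2D, the activating receptor for stress ligands. It had 4.39 CPM in the E14.5 periphery, 3.08 CPM in the E13.5 periphery, 3.43 CPM in the E14.5 liver and 2.82 CPM in the E13.5 liver, a narrow range with ratios of E14.5 to E13.5 of 1.42 in the periphery and 1.22 (1.08 to 1.37) in the liver. The cells behind this level differed between the liver stages. FL22 held 50% of Klrk1 UMIs in the E14.5 liver and group 1-like cells held 6.74% in the E13.5 liver. Outside FL22, over both stages, Klrk1 reached 15.8 CPM in the dendritic or plasmacytoid-like cluster FL27, 14.2 CPM in the neutrophil lineage-like cluster FL26 and 11.4 CPM in the unnamed cluster FL13, against 69.4 CPM in FL22 itself. The T cell-like periphery cluster P22 had 210 CPM, from 14 UMIs in 21 cells, of which 4 cells carried them.

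Klrd1 encodes CD94, which pairs with NKG2 chains to read non-classical MHC class I. It had 45.0 CPM in the E14.5 periphery, 116 CPM in the E13.5 periphery, 35.5 CPM in the E14.5 liver and 54.0 CPM in the E13.5 liver. Both E14.5 libraries were lower than the E13.5 library of the same tissue, with CPM ratios of 0.388 in the periphery and 0.659 in the liver. Within P17, P13 and FL22 its level was 607, 541 and 518 CPM at E14.5, against 542, 522 and 353 CPM at E13.5, so the group 1-like clusters did not share the lower level of the whole libraries. With those clusters left out, the periphery held 10.1 CPM at E14.5 and 65.0 CPM at E13.5. The unnamed periphery clusters P16 (162 CPM over both stages) and P15 (149 CPM) and the liver clusters FL27 (214 CPM) and FL18, an innate lymphoid progenitor-like cluster (148 CPM), also carried it. A UMI was found in 4.75% of B lineage-like cells of the E14.5 periphery, 19.4% in the E13.5 periphery, 6.15% in the E14.5 liver and 25.7% in the E13.5 liver (median 18417, 13868, 16361 and 13006 UMIs). The shares over all cells were 7.03%, 26.3%, 21.5% and 38.6% in that order. In the periphery B lineage-like cells lay mostly in P10 at E14.5 (278 cells) and in P23 at E13.5 (282 cells). In the liver they lay mostly in FL0 (1198) and FL1 (1303) at E14.5, while FL14 held 75 at E13.5. Whether the Klrd1 UMIs of these cells are background or expression was not tested.

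Klrb1c encodes NK1.1, the antigen used to define NK cells in C57BL/6 mice. It had 2.19 CPM in the E14.5 periphery, 1.47 CPM in the E13.5 periphery, 0.508 CPM in the E14.5 liver and 0.326 CPM in the E13.5 liver. Group 1-like cells held 19.6%, 25.7%, 40.7% and 1.67% of these UMIs in that order. Over both stages, P17 had 10.9 CPM and FL22 had 7.72 CPM, and the LTi-like cluster P1 followed with 5.05 CPM. Among B lineage-like clusters, P23 had 3.13 CPM and FL14 had 2.72 CPM. P13 and FL19, an LTi-like cluster of the liver, were at or below these levels, with 8 UMIs in P13 and 6 in FL19.

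**Figure D2:**
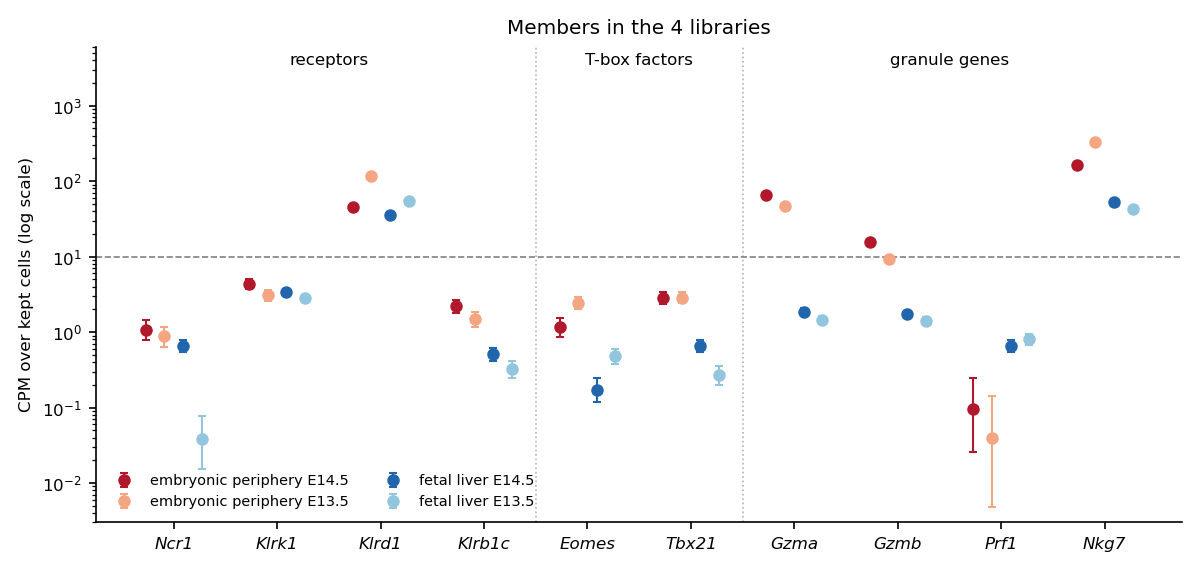
Level of each member in the 4 libraries, as CPM over all kept cells on a log axis, with exact Poisson 95% intervals and a dashed line at 10 CPM, above which a gene was counted as measured. Klrd1 and Nkg7 lie above the line in all 4 libraries, Gzma and Gzmb differ mainly between tissues, and Ncr1 is lowest in the E13.5 liver at 0.0380 CPM.

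Eomes and Tbx21 encode related T-box factors that together direct NK cell maturation. Eomes was scarcer at E14.5 than at E13.5 in both tissues. It had 1.17 CPM (49 UMIs) in the E14.5 periphery, 2.40 CPM (121 UMIs) in the E13.5 periphery, 0.173 CPM (31 UMIs) in the E14.5 liver and 0.477 CPM (88 UMIs) in the E13.5 liver. The ratio of E14.5 to E13.5 was 0.486 (0.341 to 0.682) in the periphery and 0.362 (0.233 to 0.551) in the liver. Tbx21 did not share that order, with 2.84 CPM in the E14.5 periphery, 2.86 CPM in the E13.5 periphery, 0.658 CPM in the E14.5 liver and 0.266 CPM in the E13.5 liver. Its ratio was 0.992 (0.771 to 1.27) in the periphery and 2.48 (1.76 to 3.53) in the liver. The stage ratios of the 2 factors thus had counting intervals that did not overlap in either tissue. These intervals leave out the spread between cells and between embryos, and the difference between the factors was not tested. For both factors the periphery exceeded the liver at both stages, 6.75-fold at E14.5 and 5.04-fold at E13.5 for Eomes and 4.31-fold and 10.8-fold for Tbx21.

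The cells that carried the T-box genes also differed. Group 1-like cells held 72.3% to 89.8% of Tbx21 UMIs and 38.8% to 58.1% of Eomes UMIs across the libraries. In the periphery these shares count the weakly named P13, which held 47 of 119 Tbx21 UMIs at E14.5 and 74 of 144 at E13.5. In FL22 at E14.5, 74 of 297 cells had a Tbx21 UMI, 14 had an Eomes UMI and 7 had both. In FL22 at E13.5 the numbers were 26, 19 and 4 of 119 cells. P17 had 20 Tbx21 cells, 7 Eomes cells and 0 with both of 103 at E14.5, and 23, 8 and 3 of 123 at E13.5. P13 had 32, 9 and 2 of 134 at E14.5, and 51, 30 and 11 of 337 at E13.5. The LTi-like cluster FL19 carried Eomes in 3 of 114 cells at E14.5 and in 19 of 310 at E13.5, with no Tbx21 UMI at either stage. FL19 showed 12 of 14 LTi markers and 9 of 18 group 1 markers. At this depth a cell without a UMI may still have expressed the gene. In B lineage-like cells of the E14.5 liver, 0 of 3399 had an Eomes UMI and 0.0294% had a Tbx21 UMI.

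Gzma encodes granzyme A, a serine protease of cytotoxic granules. It had 65.6 CPM in the E14.5 periphery and 47.2 CPM in the E13.5 periphery, against 1.86 CPM in the E14.5 liver and 1.43 CPM in the E13.5 liver. In the periphery most of this signal sat in a small cluster that was not group 1-like. P21, an unnamed cluster led by Akr1c13, Tcrg-C2, Hmga2, Khdc1a and Prtn3, had 3801 CPM at E14.5 (2623 UMIs in 19 of 29 cells) and 564 CPM at E13.5 (1840 UMIs in 24 of 157 cells). These were 95.4% and 77.4% of the Gzma UMIs of the 2 libraries. P21 showed 0 of 18 group 1 markers and 6 of 13 T cell markers, with a median of 25315 UMIs per cell at E14.5 and 20728 at E13.5, above its libraries' medians. The part of cell doublets in P21 was not tested beyond the doublet filter. Without P21, Gzma stood at 3.10 CPM (2.59 to 3.69) in the E14.5 periphery and 11.4 CPM (10.5 to 12.4) in the E13.5 periphery. The group 1-like cluster P13 held another 382 UMIs in 59 cells at E13.5. In the liver, the innate lymphoid progenitor-like cluster FL16 had 57.9 CPM at E14.5 and 18.6 CPM at E13.5, or 65.2% and 54.0% of the Gzma UMIs. FL22 followed with 22.4 CPM at E14.5 and 45.8 CPM at E13.5. The 10 richest cells held 74.8% of Gzma UMIs in the E14.5 periphery, 68.1% in the E13.5 periphery, 50.2% in the E14.5 liver and 59.7% in the E13.5 liver.

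Gzmb encodes granzyme B, the apoptosis-inducing granzyme. It had 15.5 CPM in the E14.5 periphery and 9.34 CPM in the E13.5 periphery, against 1.72 CPM in the E14.5 liver and 1.41 CPM in the E13.5 liver. Mast cell or basophil-like cells were its main carriers in 3 libraries and held under 50% of its UMIs in the E13.5 periphery. They held 78.0% in the E14.5 periphery, 47.0% in the E13.5 periphery, 95.1% in the E14.5 liver and 59.5% in the E13.5 liver. In the periphery this class includes P24 (67 cells at E14.5 and 70 at E13.5), led by Cma1, Tcrg-C4, Bcl11b, Skap1 and Cck. P24 showed 5 of 10 mast cell or basophil markers and 7 of 13 T cell markers, so its name is weak. The basophil-like cluster P14, led by Mcpt8, Il6, Osm, Hdc and Ccl9, had 552 CPM at E14.5 (498 UMIs in 14 of 60 cells) and 207 CPM at E13.5 (197 UMIs in 8 of 54 cells). P21 held a further 8.78% of Gzmb UMIs in the E14.5 periphery and 36.8% in the E13.5 periphery. The liver counterpart of P14 by markers, FL12, had 39.1 CPM at E14.5 (89 of 664 cells) and 96.5 CPM at E13.5 (10 of 109 cells). In the E13.5 liver a further 28.6% of Gzmb UMIs came from 6 of the 23 cells of the megakaryocyte-like cluster FL17. The 10 richest cells held 79.2% in the E14.5 periphery and 90.4% in the E13.5 liver. Without the mast cell or basophil-like clusters, Gzmb stood at 3.57 CPM and 5.15 CPM in the E14.5 and E13.5 periphery and at 0.0874 CPM and 0.575 CPM in the E14.5 and E13.5 liver.

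Prf1 encodes perforin, the pore-forming protein that lets granzymes into target cells. It was at the limit of detection, and unlike the granzymes it was not higher in the periphery. The E14.5 periphery held 4 UMIs, the E13.5 periphery 2, the E14.5 liver 117 (0.653 CPM) and the E13.5 liver 149 (0.808 CPM). The ratio of periphery to liver was 0.146 (0.0391 to 0.384) at E14.5 and 0.0492 (0.00590 to 0.181) at E13.5. Of the 113 E14.5 liver cells with a UMI, 109 had 1 UMI, and of the 145 at E13.5, 141 did. Group 1-like cells held 3.42% and 1.34% of the liver UMIs. P17 held none at either stage, P13 held 1 at each stage, and FL22 held 4 at E14.5 and 2 at E13.5. In B lineage-like cells of the E14.5 liver 0.353% of cells had a Prf1 UMI, against 1.05% of all cells in that library.

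Nkg7 encodes a membrane protein of cytotoxic granules. It was the member found in most cells in 3 libraries, while in the E13.5 liver Klrd1 was in more. It had 162 CPM in the E14.5 periphery, 335 CPM in the E13.5 periphery, 53.3 CPM in the E14.5 liver and 42.7 CPM in the E13.5 liver, and a UMI was present in 33.9%, 59.6%, 23.9% and 28.9% of cells in that order. After thinning every cell to 5000 UMIs the shares were 28.3%, 50.6%, 14.3% and 14.6%, so the shares of the liver libraries were then nearly equal. B lineage-like cells had a UMI in 4.45%, 10.7%, 2.68% and 4.29% of cells. The stages ran in opposite directions in the tissues, with a ratio of E14.5 to E13.5 of 0.483 in the periphery and 1.25 in the liver. Mast cell or basophil-like cells carried 617 CPM at E14.5 and 717 CPM at E13.5 in the periphery, and 554 and 488 CPM in the liver. The periphery values include the weakly named P24, with its T cell markers. Without these cells the liver held 31.2 CPM at E14.5 and 38.8 CPM at E13.5, which turns the direction of its stage difference. In the periphery the innate lymphoid progenitor-like cells had 108 CPM at E14.5 and 359 CPM at E13.5, and the LTi-like cells had 63.9 CPM at E14.5 and 145 CPM at E13.5. Different clusters hold these classes at the stages. Progenitor-like cells lay mostly in P9 (588 cells) and P5 (168) at E14.5 and in P28 (414) and P26 (376) at E13.5, while most LTi-like cells lay in P1, P2, P3, P4, P7 and P8 at E14.5 and in P30 (587) and P27 (178) at E13.5. Group 1-like cells of the periphery, at 792 CPM at E14.5 and 1017 CPM at E13.5, were higher still.

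**Figure D3:**
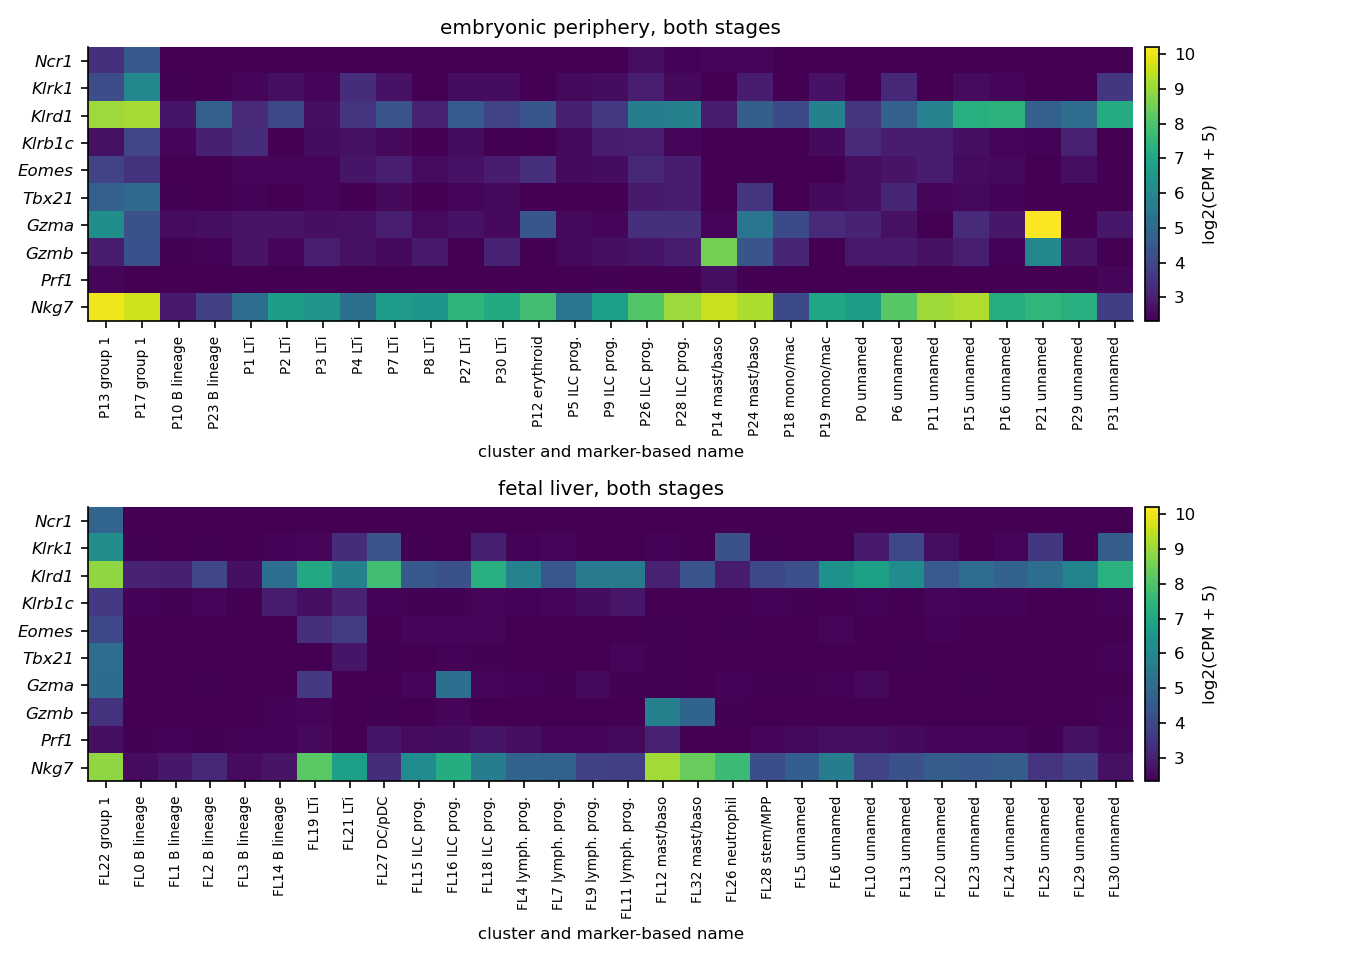
Level of each member, as log2(CPM + 5) in colour, in every cluster of at least 50 cells, periphery above and fetal liver below, both stages together. Tbx21 lights up in P13, P17 and FL22, and Ncr1 in P17 and FL22 but little in P13. Gzma lights up in P21 (1129 CPM) and Gzmb in P14 (375 CPM) and FL12 (49.2 CPM), whereas Klrd1 and Nkg7 spread over many clusters.

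To read these levels against all genes, 5 CPM were added on each side before the log2 fold, and the median fold of all genes at 10 CPM or more in either library was subtracted. That median was -0.03 for the liver stages, 0.23 for the periphery stages, -0.17 for periphery over liver at E14.5 and -0.41 at E13.5. A gene was counted as past 2-fold at 1 log2 unit or more. A gene at 10 CPM or more on only 1 side was measured through the side where it was higher. Adding 5 CPM understates the folds of the rarer members, and Ncr1, Klrk1, Klrb1c, Eomes, Tbx21 and Prf1 never reached 10 CPM in a whole library.

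For E14.5 over E13.5 in the liver, 2 members were measured and 0 were past 2-fold, where 1.29% of 7744 measured genes were higher and 0.31% were lower. Klrd1 stood at -0.51 and Nkg7 at 0.32. For E14.5 over E13.5 in the periphery, 2 of 4 measured members were lower, where 1.44% of 7243 genes were higher and 2.31% were lower. They were Klrd1 at -1.50 and Nkg7 at -1.26, while Gzma stood at 0.21 and Gzmb at 0.29. The sign for Gzma is set by P21: without that cluster its fold was -1.25, and it was -0.36 with every cell given equal weight. Gzmb stood at -0.47 without mast cell or basophil-like clusters. The median of the measured members was -0.10 in the liver and -0.52 in the periphery.

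For periphery over liver at E14.5, 3 of 4 measured members were higher, where 12.3% of 8122 genes were higher and 11.4% were lower. The 3 were Gzma at 3.53, Gzmb at 1.78 and Nkg7 at 1.68, with Klrd1 at 0.47 and a median of 1.73. At E13.5 all 3 measured members were higher, where 12.6% of 7987 genes were higher and 10.4% were lower. They were Gzma at 3.43, Nkg7 at 3.24 and Klrd1 at 1.45, with a median of 3.24. The granzyme calls rest on small clusters. Without P21 the Gzma fold was 0.41 at E14.5, no longer past 2-fold, and 1.77 at E13.5. Without the mast cell or basophil-like clusters Gzmb stood at 0.92 at E14.5. Without the group 1-like clusters Klrd1 stood at -0.87 at E14.5 and 0.71 at E13.5, neither past 2-fold. Nkg7 stayed past 2-fold in both tissue comparisons with each of these clusters left out in turn.

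Cells that carried several members at once were few. A UMI of at least 4 of the 10 members was found in 28 cells of the E14.5 periphery (0.645%), 60 of the E13.5 periphery (1.44%), 70 of the E14.5 liver (0.648%) and 19 of the E13.5 liver (0.194%). P17 held 15 and P13 held 11 of the 28 at E14.5, and 20 and 27 of the 60 at E13.5. FL22 held 68 of the 70 at E14.5 and 15 of the 19 at E13.5. After thinning to 5000 UMIs the numbers were 15, 27, 28 and 7. Ncr1 cells mostly carried Klrd1 as well, in 16 of 21, 11 of 14, 35 of 40 and 5 of 5 cells, and Nkg7, in 21 of 21, 14 of 14, 36 of 40 and 5 of 5. Over all kept cells the shares were 7.03%, 26.3%, 21.5% and 38.6% for Klrd1 and 33.9%, 59.6%, 23.9% and 28.9% for Nkg7. Most Ncr1 UMIs lay in group 1-like clusters, where Klrd1 and Nkg7 were high, and the overlap was not tested apart from cluster membership. A Gzma UMI was found in 3 of 21, 0 of 14, 3 of 40 and 0 of 5 Ncr1 cells. Over all kept cells the Gzma shares were 1.84%, 3.32%, 0.759% and 0.737%, so these few cells do not show whether Ncr1 cells lack Gzma.

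Within FL22 the receptor genes Ncr1, Klrk1 and Klrb1c were higher at E14.5 than at E13.5, while Eomes and Gzmb were lower. This cluster had nearly equal depth at the stages, with a median of 10691 UMIs per cell at E14.5 and 10583 at E13.5. Of 9 measured members 3 were higher and 2 were lower, where 1.26% of 8116 genes were higher and 1.42% were lower. Among them Ncr1, Klrb1c, Eomes and Gzmb reached 10 CPM only at the stage where they were higher. At the other stage they had 4.04, 0.674, 5.23 and 1.74 CPM. The number of members past 2-fold was not tested against the shares of all genes. Ncr1 had 34.0 CPM (117 UMIs) at E14.5 and 4.04 CPM (6 UMIs) at E13.5, a log2 fold of 2.11 and a CPM ratio of 8.41 (3.75 to 23.4). Klrk1 had 89.2 CPM at E14.5 and 23.6 CPM at E13.5, a log2 fold of 1.72 and a ratio of 3.78 (2.66 to 5.53). Klrb1c had 37 UMIs at E14.5 and 1 at E13.5, a log2 fold of 1.48 whose ratio of 16.0 carries an interval of 2.69 to 647. The 3 activating-receptor genes thus pointed the same way, and Klrd1, at 518 and 353 CPM, had a smaller fold of 0.55. Eomes had 5.23 CPM (18 UMIs) at E14.5 and 24.9 CPM (37 UMIs) at E13.5, a log2 fold of -1.55 and a ratio of 0.210 (0.112 to 0.378). Tbx21 had 30.8 CPM at E14.5 and 27.6 CPM at E13.5, a fold of 0.14. Gzmb had 6 UMIs in 6 cells at E14.5 and 24 UMIs in 6 cells at E13.5, with a fold of -1.65 that rests on those few cells. Gzma had 22.4 CPM at E14.5 and 45.8 CPM at E13.5, a ratio of 0.488 (0.348 to 0.687). With 5 CPM added its fold was -0.89, so Gzma and Nkg7 (-0.06) were counted as within 2-fold. Among T cell markers, Tcrg-C1 was past 2-fold in FL22, at 88.9 CPM at E14.5 and 31.0 CPM at E13.5 (1.39), and its part in these differences was not tested. When each liver library was clustered alone, the E13.5 cells of FL22 formed a cluster that its markers named T cell, and 112 of its 115 cells were shared.

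In P17, 1 of 8 measured members was higher and 1 was lower, where 2.13% of 7002 genes were higher and 2.14% were lower. Ncr1 had 29.4 CPM (33 UMIs) at E14.5 and 10.4 CPM (16 UMIs) at E13.5, with a fold of 0.93 and a ratio of 2.826 (1.512 to 5.498). Klrk1 had 86.4 CPM at E14.5 and 37.7 CPM at E13.5, with a fold of 0.86 and a ratio of 2.29 (1.64 to 3.23). Both lay just inside the 2-fold line and in the direction seen in FL22. Klrb1c (0.56) and Tbx21 (0.35) were also within it, and Eomes had 7 UMIs at E14.5 and 9 at E13.5. Gzma was lower, with 6 UMIs in 4 cells at E14.5 and 32 UMIs in 7 cells at E13.5, a fold of -1.55. Gzmb was higher, with 32 UMIs in 4 cells at E14.5 and 7 UMIs in 4 cells at E13.5, a fold of 1.58 that was -0.10 between the best-matching clusters when each library was clustered alone.

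In P13, 0 of 6 measured members were higher and 1 was lower, where 1.6% of 7202 genes were higher and 2.21% were lower. Gzma had 4.68 CPM at E14.5 (7 UMIs in 6 of 134 cells) and 95.1 CPM at E13.5 (382 UMIs in 59 of 337 cells), a fold of -3.62. T cell markers moved beside it, with 3 of 9 measured past 2-fold. Cd3g had 533 CPM at E14.5 and 1001 CPM at E13.5 (-1.15), Cd3d 31.4 and 63.7 CPM (-1.17), and Tcrg-C1 72.2 and 23.2 CPM (1.21). Their part in the Gzma difference was not tested. Ncr1 was low at both stages, at 6.69 and 5.23 CPM. Tbx21 had 31.4 CPM at E14.5 and 18.4 CPM at E13.5, and Nkg7 had 837 and 1084 CPM, both within 2-fold. Gzma was thus lower at E14.5 in both periphery group 1-like clusters. It was also lower in the whole periphery once P21 was left out, with 128 UMIs at E14.5 and 537 at E13.5. Those UMIs include these clusters: P13 held 7 and 382 of them, and P17 held 6 and 32. The difference over the whole periphery is therefore not separate from that within P13 and P17. In FL22 of the liver Gzma was lower as well, with a CPM ratio of 0.488 (0.348 to 0.687). No difference between clusters or tissues in these stage folds was tested.

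**Figure D4:**
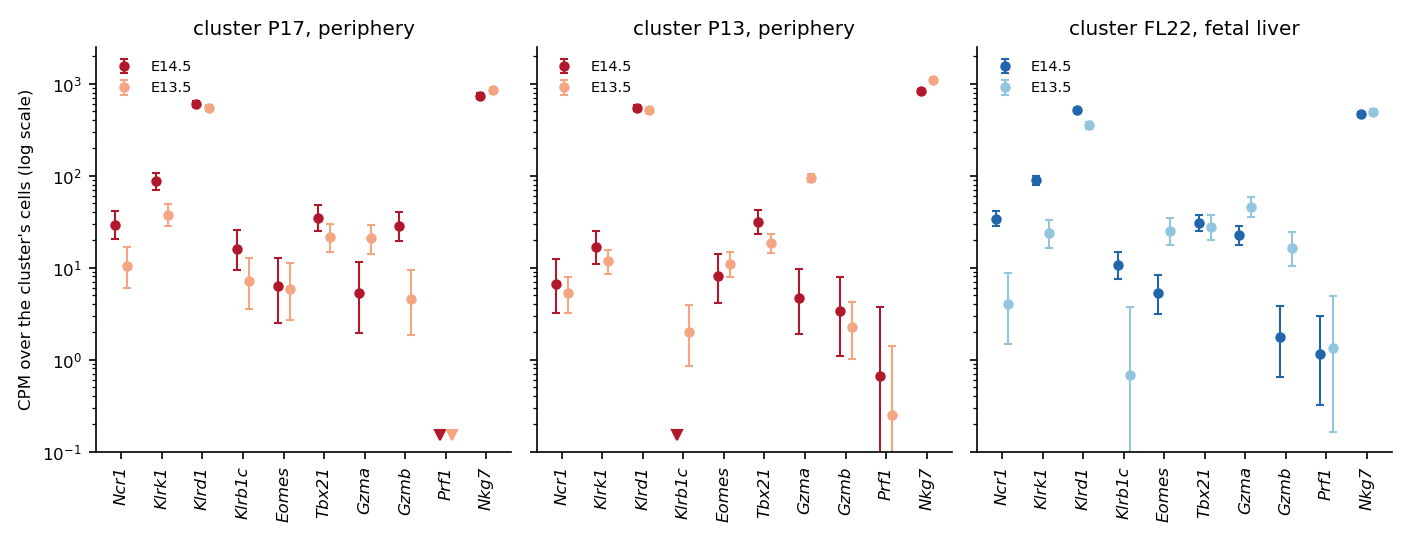
Level of each member within the 3 group 1-like clusters, as CPM on a log axis with exact Poisson 95% intervals, E14.5 left of E13.5, with triangles for 0 UMIs. Ncr1 and Klrk1 are higher at E14.5 in FL22 (34.0 and 4.04 CPM for Ncr1) and in P17. The intervals cover counting error only and leave out the spread between cells and between embryos. Gzma is lower at E14.5 in all 3 clusters, and its log2 fold with 5 CPM added is past 2-fold in P13 and P17.

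The receptors act with partner chains and adaptors. NKG2A and NKG2C, the products of Klrc1 and Klrc2, pair with CD94. DAP10 (Hcst), DAP12 (Tyrobp), the Fc receptor γ chain (Fcer1g) and the ζ chain (Cd247) carry the signals of NKG2D, NKp46 and related receptors. In FL22, Klrc1 had 20.9 CPM at E14.5 and 8.09 CPM at E13.5, and Klrc2 had 20.05 and 6.74 CPM, with folds of 0.99 and 1.10. Hcst had 48.2 and 35.0 CPM, Tyrobp 602 and 1142 CPM, Fcer1g 655 and 924 CPM, and Cd247 25.3 and 16.2 CPM. Thus 1 of 6 measured partner genes was higher at E14.5 in FL22 and 0 were lower. Of all measured genes, 1.26% were higher and 1.42% lower in FL22, 2.13% and 2.14% in P17, and 1.6% and 2.21% in P13. For E14.5 over E13.5 in whole libraries the shares were 1.29% and 0.31% in the liver and 1.44% and 2.31% in the periphery. For periphery over liver they were 12.3% and 11.4% at E14.5 and 12.6% and 10.4% at E13.5. These shares stand beside the counts of this list and the lists below. In P17, Klrc1 had 17.8 CPM at E14.5 and 6.498 CPM at E13.5, Klrc2 21.4 and 11.1 CPM, and Hcst 161 and 92.9 CPM, with 0 of 5 measured partner genes past 2-fold. In the whole periphery Tyrobp was lower at E14.5, at 472 CPM against 1185 CPM at E13.5 (-1.55), the only 1 of 3 measured partner genes to be so. Hcst was higher in the periphery than in the liver at both stages (3.27 at E14.5 and 2.55 at E13.5), as was Fcer1g (2.09 and 2.71).

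Of 23 other NK cell surface genes, 10 were measured in FL22, where 3 were higher at E14.5 and 1 was lower. Klrb1b, an inhibitory relative of Klrb1c, had 173 CPM at E14.5 and 66.0 CPM at E13.5 (1.33). Klri2 had 27.9 and 9.43 CPM (1.19), and Cd226, which encodes the adhesion receptor DNAM-1, had 61.3 and 19.5 CPM (1.44). Fcgr3, which encodes CD16, was lower, at 53.2 CPM at E14.5 and 149 CPM at E13.5 (-1.40). In P17, 1 of 10 was higher, Klra8 (1.496), and in P13 0 of 8 were past 2-fold. Over whole libraries, 1 of 5 was higher at E14.5 in the liver, Slamf6, at 59.5 CPM against 10.9 CPM at E13.5 (2.05), and 0 of 7 were past 2-fold in the periphery. For periphery over liver 4 of 8 were higher at E14.5 and 6 of 8 at E13.5, led by Cd7 (4.65 and 4.498) and Cd160 (4.37 and 4.55).

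Among 15 innate lymphocyte transcription factor genes, 13 were measured in FL22, where 2 were higher at E14.5. These were Ikzf3, which encodes Aiolos, at 95.01 CPM at E14.5 and 25.6 CPM at E13.5 (1.71), and Ets1 at 211 and 103 CPM (1.004). Id2, an inhibitor of E proteins needed by all innate lymphoid lineages, was higher at E14.5 in P17 (1.69) and P13 (1.42), the sole gene of its list past 2-fold in each. Over whole libraries 1 of 13 factors was higher at E14.5 in the periphery, and 1 of 11, Ets1 (1.37), was higher and 2 were lower in the liver. Id2 ran in opposite directions, at 1526 CPM in the E14.5 periphery against 405 CPM at E13.5 (1.67), and at 99.6 CPM in the E14.5 liver against 241 CPM at E13.5 (-1.21). For periphery over liver 10 of 13 factors were higher and 1 was lower at E14.5, and 7 of 12 were higher and 2 were lower at E13.5.

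Of 20 other granule and release genes, 12 were measured in FL22, and 1 was higher at E14.5, the granzyme gene Gzmc, with 36 UMIs at E14.5 and 1 at E13.5 (1.45). None of 11 was past 2-fold in P17 and none of 9 in P13. Srgn, which encodes the granule proteoglycan serglycin, had 527 CPM at E14.5 and 668 CPM at E13.5 in FL22, and Ctsw, a lymphocyte cathepsin gene, had 275 and 285 CPM. Over whole libraries 1 of 9 was higher at E14.5 in the periphery, Stx11 (1.13), and 0 of 8 were past 2-fold in the liver. For periphery over liver 5 of 9 were higher and 1 was lower at E14.5, and 3 of 9 were higher and 1 was lower at E13.5.

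Of 15 group 1 cytokine, chemokine and receptor genes, 13 were measured in FL22, where 3 were higher at E14.5 and 1 was lower. Ifng, the hallmark group 1 cytokine, had 220 CPM at E14.5 and 93.0 CPM at E13.5 (1.20), Tnf had 75.0 and 17.5 CPM (1.83), and Il12rb1 had 63.0 and 24.3 CPM (1.22). Ccl5 was lower, at 829 CPM at E14.5 and 1727 CPM at E13.5 (-1.05). In P17, 2 of 13 were higher, Tnf (1.90) and Csf2 (1.31). In P13, Csf2 was higher (1.28) while Xcl1 (-1.71) and Ccl4 (-1.22) were lower. Ccl4 (-2.87) and Ccl5 (-1.36) were also the 2 of 11 genes lower at E14.5 over the whole periphery. For periphery over liver 7 of 11 were higher and 2 were lower at E14.5, and 8 of 11 were higher at E13.5, with Ccl5 at 3.71 and 4.85. Of the 18 group 1 markers that named the clusters, all but Txk stand in the lists above, so their high levels in P13, P17 and FL22 are part of the naming and only the stage differences within a cluster are additional. Since folds are centred, the median over all measured genes is 0. For the partner, surface, transcription factor, granule and cytokine lists the median fold of E14.5 over E13.5 in FL22 was 0.47, 0.49, -0.14, 0.12 and 0.14. Over whole libraries the same medians were -0.51, 0.10, 0.42, 0.12 and 0.36 in the periphery, and 0.13, 0.04, -0.32, -0.20 and -0.19 in the liver. For periphery over liver they were 2.09, 1.11, 1.84, 1.47 and 2.08 at E14.5, and 2.55, 1.88, 1.29, 0.90 and 1.75 at E13.5.

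Genes with a pattern like each member were sought over 87 units, each 1 cluster in 1 library with at least 50 cells, among 9104 genes. Pearson's r was taken on log2(CPM + 5). The units share 4 libraries, and depth differs between tissues, so r is a description with no test. Nearest to Ncr1 were Klrc2 (r = 0.96), Klrc1 (0.93) and Cd200r2 (0.90), and nearest to Tbx21 were Sulf2 (0.95), Cd163l1 (0.91) and Klrc1 (0.90). Eomes was nearest to Efnb1 (0.81), Hs3st3b1 (0.81) and Xcl1 (0.79). Among the genes near Klrk1 was Klrc2 (0.75), and among those near Klrd1 were Psme1 (0.72) and Irf1 (0.70). Klrb1c was nearest to the MHC class I genes H2-Q6 (0.77), H2-Q7 (0.77) and H2-Q4 (0.74). Gzmb was nearest to Nt5e (0.89), Muc20 (0.88) and Cyp11a1 (0.88), the last of them also among the leading genes of the basophil-like clusters P14 and FL12. Gzma was nearest to Cd3g (0.72), Gm4208 (0.65) and Ahsg (0.64), Prf1 to Arhgap4 (0.69), Slc2a3 (0.67) and Hmgcs1 (0.66), and Nkg7 to Fgl2 (0.85), Ikzf2 (0.84) and Zbtb16 (0.84). For the summed members the 10 nearest genes were Fgl2 (0.80), Tyrobp (0.79), Cd200r1 (0.77), S100a11 (0.76), Bscl2 (0.74), Dapk2 (0.74), Rcn3 (0.73), Itgb7 (0.73), Cd3g (0.73) and RP24-500I24.7 (0.72).

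Between members, r was 0.88 for Ncr1 and Tbx21, 0.77 for Eomes and Tbx21, 0.74 for Ncr1 and Klrk1, and 0.70 for Klrk1 and Tbx21. The receptor pair Klrk1 and Klrb1c had r = 0.41. Among pairs with a granule gene, r was 0.56 for Eomes and Nkg7, 0.54 for Tbx21 and Nkg7, 0.49 for Tbx21 and Gzma, 0.35 for Ncr1 and Gzma, and 0.19 for Ncr1 and Gzmb. Between granule genes it was 0.56 for Gzmb and Nkg7, 0.45 for Gzma and Nkg7, and 0.24 for Gzma and Gzmb. Prf1 reached at most 0.25 with another member, which was Gzmb. Ncr1, Gzmb and Nkg7, whose promoter windows are printed above with both motifs, were carried by clusters that overlap in part. Ncr1 was highest in P17 and FL22, and Gzmb in P14 and P21 among periphery clusters and in FL12 among liver clusters of at least 50 cells. Nkg7 was high in P13, P17, P14, FL12 and FL22, among them clusters of both other genes.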

How the data were processed

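The members and gene lists were chosen with earlier results of these data known. The authors deposited UMI counts, genes by barcodes, from Cell Ranger version 3 on mm10, per the submitters' processing notes (3.0.1 for the periphery and 3.0.0 for the liver, per the file headers). The 4 libraries held 5008, 4531, 12090 and 10783 barcodes (E14.5 and E13.5 periphery, E14.5 and E13.5 liver) and 44599592, 53229734, 208229937 and 212034840 UMIs.

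Barcodes were kept from 500 genes upwards if mitochondrial UMIs did not exceed 10%, after Scrublet, run through scanpy 1.11.5, had marked doublets (170, 153, 898 and 865). Its automatic threshold was used in the E14.5 liver, and elsewhere the top scores up to 0.8% per 1000 barcodes were removed. Each tissue was clustered by Leiden at resolution 2 on 30 components, 15 neighbours and 2000 variable genes, with the members, haemoglobin, mitochondrial, ribosomal, histone and cell-cycle genes left out. A cluster was named when at least 3 and at least 50% of a class's markers reached 20 CPM and exceeded the lower quartile over clusters by 1 log2 unit, and when its 10 leading genes did not favour another class. This rule was settled after the clusters were seen. A cluster mostly of 1 library may be that library and not a type.

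Named genes were all 10 members, the partner list in full, and from each other list the 3 highest in group 1-like cells and the 2 with the largest fold per comparison. Other genes past 2-fold within P13, P17 and FL22 and the clusters named beside a member were picked after their values were seen. The 3 and 10 nearest genes were those with the highest r among genes at 20 CPM in at least 1 unit. A few genes these rules name are not reported here. Shares of cells used exact binomial counts, without or with thinning to 5000 UMIs (3879, 3832, 10067 and 9402 cells were deep enough). Alternatives changed the CPM added, centring, low-value filter, cell filters, doublets, cell weights, thinning and clustering. The fold step was checked on simulated counts.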

Additional observations from a re-analysis of the deposited data

Results flagged for a closer look

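The stage difference of Nkg7, the granule membrane protein gene, ran in opposite directions in the tissues. Its log2 fold of E14.5 over E13.5 was -1.26 in the periphery and 0.32 in the liver, so the periphery fold minus the liver fold was -1.58. With 1 library per group this difference was not tested. Without mast cell or basophil-like clusters the folds were -1.39 in the periphery and -0.24 in the liver, which then pointed the same way.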

How the results depend on the processing

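No paired analysis was possible because each group is 1 library. The number of members past 2-fold in each of the 4 library comparisons stayed within 1.5 times its value under every alternative tried, although which members were counted changed: without cluster P21, an alternative chosen after seeing the data like the others that leave out clusters, Gzma became lower at E14.5 in the periphery (-1.25) and lost its call for periphery over liver at E14.5 (0.41). With each library clustered alone, also matched after seeing the data, 2 members in place of 1 were past 2-fold in P13, 1 in place of 2 in P17, and the Gzmb fold in P17 was -0.10 in place of 1.58. In FL22 the number stayed at 5 under all alternatives tried.

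The share of kept cells in group 1-like clusters depended on the clustering. In the E14.5 periphery (5.46%) it was 2.30% at resolution 1, 2.30% with seed 2, 4.29% with the members kept and 2.42% with each library alone. In the E13.5 periphery (11.1%) it was 2.86%, 2.84% and 3.35% at resolution 1, with seed 2 and alone, where P13 lost its name. In the E14.5 liver (2.75%) it was 3.802% when every cluster with at least 9 of 18 markers counted, and in the E13.5 liver (1.22%) it was 0.962% at resolution 1, 0% alone and 4.39% with 9 markers. The share of member UMIs moved likewise, to 13.7%, 13.7%, 26.1% and 13.9% in the E14.5 periphery (31.1%), to 8.01%, 7.74% and 8.42% in the E13.5 periphery (35.8%), to 24.0% with the members kept and 25.4% with 9 markers in the E14.5 liver (23.0%), and to 6.13%, 0% and 17.4% in the E13.5 liver (7.60%). The cause of these shifts was not tested beyond the loss of a cluster's name. Depth limits Ncr1, Klrb1c, Eomes, Tbx21 and Prf1, and which of them it limits most was not tested.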
